A study of Mus musculus with 13 samples.

Results

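The collagen genes of C2C12 myotubes were taken as the protein-coding genes whose symbol has the form Col, a number, a and a number, with a mean normalized count of at least 10 over the libraries. The annotation holds 44 such symbols, 40 of them were in the deposited tables of 16382 genes, and 26 reached the minimum. The 26 members comprised 9 fibrillar collagens (Col1a1, Col1a2, Col3a1, Col5a1, Col5a2, Col5a3, Col11a1, Col11a2 and Col27a1), 3 type IV chains (Col4a1, Col4a2 and Col4a5), 4 type VI chains (Col6a1, Col6a2, Col6a3 and Col6a4) and 10 others. The others were the fibril-associated Col9a3, Col12a1, Col14a1 and Col16a1, the multiplexin Col18a1, the network-forming Col8a1, the transmembrane Col17a1 and Col23a1, the anchoring fibril chain Col7a1 and Col26a1. Just inside the minimum were Col26a1 at 10.2 and Col6a4 at 11.3, and just outside it were Col19a1 at 9.36 and Col24a1 at 8.84. Col15a1, a basement membrane zone collagen of muscle, was listed at a mean of 2.41 and is no member. Col6a5, Col6a6, Col9a1 and Col9a2 were not analysed here.

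C2C12 is a wild-type mouse myoblast line that fuses into multinucleated myotubes in medium with little serum. RNA-seq was performed on 6 libraries of myotubes given vehicle (DMSO, CON) and 6 given 10 μM palmitoylethanolamide (PEA, a fatty acid amide) for 24 h from day 8 of differentiation. The wells were duplicates in 3 repeats of the experiment, and since the labels do not tie libraries to repeats, p-values measure the spread between libraries, part of which may be technical. PEA replicate 2 has 2 sequencing runs with a single set of values and was counted as 1 library. Libraries held 12354845 to 50397444 estimated counts, of which the members took 0.537% to 0.703% in CON and 0.596% to 0.668% in PEA. All 14 myotube markers examined were expressed, with a summed normalized count of 83278 to 132998 in CON and 85648 to 103691 in PEA, while none of 5 endothelial markers reached a mean of 10. Of 6 macrophage markers, 4 were in the tables, with a summed normalized count of 64.6 to 145 in CON and 85.9 to 127 in PEA. Cd68, with medians of 103 and 95.5, was the only one with a mean of at least 10, and Csf1r had medians of 7.28 and 6.75 and Ptprc of 0 in both groups.

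Collagens are built from 3 chains wound into a triple helix, which requires glycine as the first residue of every Gly-X-Y triplet. Fibrillar collagens carry 1 long helix and assemble into the fibrils of the muscle endomysium, in which type V chains take part in starting fibrils of types I and III. Type IV collagens form the sheet of the basement membrane around each fiber, and type VI collagens form beaded filaments beside it that link it to the matrix. Proline and lysine hydroxylases and chaperones prepare the chains in the endoplasmic reticulum, and lysyl oxidases crosslink them outside the cell.

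The coding sequences show how the classes differ. In the reference transcripts of GENCODE on GRCm39, counting runs of at least 5 triplets that begin with a glycine codon, the fibrillar members had a longest uninterrupted run of 337 to 344 triplets, apart from Col27a1 with 217. The type IV members had 22 to 24 runs of at most 66 triplets, and the type VI members had 3 runs of at most 87. A stretch of 90 bases is shown for 3 members whose counts differed between the groups, 1 each of the fibrillar, type VI and type IV classes, with the glycine codons of the repeat in capitals. Col5a3 (chromosome 9) and Col6a1 (chromosome 10) keep the repeat throughout, and Col4a5 (chromosome X) has an interruption within the stretch, leaving 9 repeat glycine codons instead of 10.
Col5a3, codons 478 to 507: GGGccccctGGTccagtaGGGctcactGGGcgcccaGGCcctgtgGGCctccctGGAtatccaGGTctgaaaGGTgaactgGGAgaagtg
Col6a1, codons 256 to 285: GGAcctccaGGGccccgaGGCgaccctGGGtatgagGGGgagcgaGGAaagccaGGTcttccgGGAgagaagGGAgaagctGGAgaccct
Col4a5, codons 1360 to 1389: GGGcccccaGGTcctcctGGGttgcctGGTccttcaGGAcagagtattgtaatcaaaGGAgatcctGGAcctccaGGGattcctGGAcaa

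**Figure D1:**
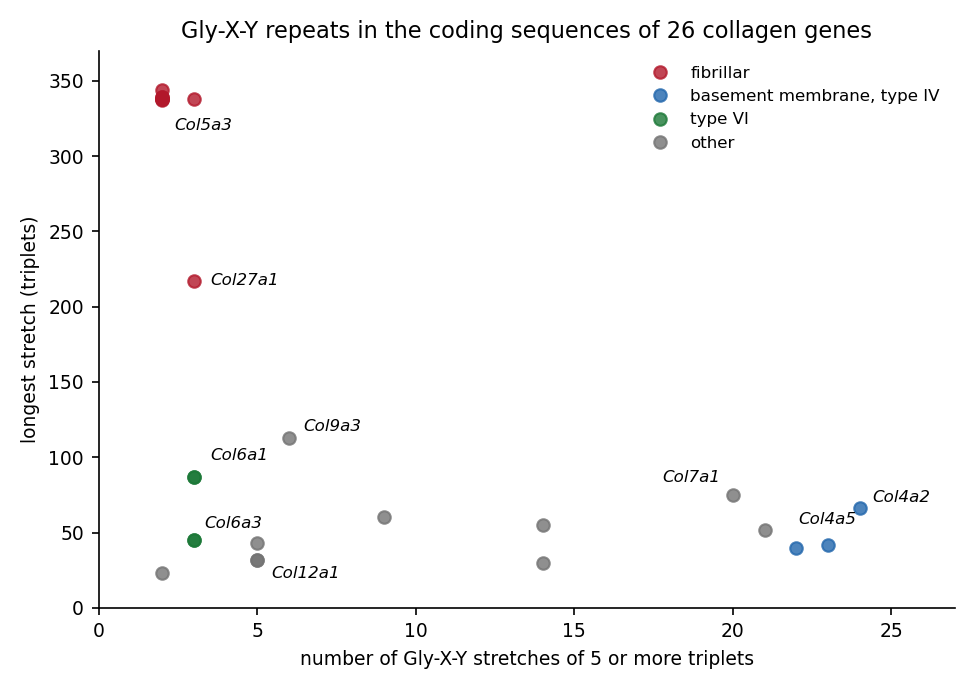
Number of Gly-X-Y stretches of at least 5 triplets (x axis) and the longest stretch in triplets (y axis) in the coding sequence of each of the 26 members, colored by class. The fibrillar chains lie at 2 or 3 stretches with 1 of at least 217 triplets, and the type IV chains at 22 to 24 short ones.

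Transcript levels spanned a wide range, and a fibrillar gene led them. Per kilobase of exon, Col3a1, the chain of the homotrimeric type III collagen, had 5173 to 7070 normalized counts over the 12 libraries, above every library of each other member. Col5a2 (838 to 1333), Col6a1 (839 to 1404) and Col1a2 (655 to 1110) followed, with ranges that overlap over the 12 libraries. Their order differed between the groups. In CON, Col6a1 had the highest median of these (1181, beside 1049 for Col5a2 and 893 for Col1a2). In PEA, Col5a2 had the highest median (1213, beside 889 for Col6a1 and 1061 for Col1a2), and its range of 1113 to 1333 lay above theirs. Col5a1, Col1a1, Col4a1, Col18a1 (source of endostatin), Col4a2, Col12a1, Col8a1, Col6a2, Col5a3 and Col6a3 came next, each with a median per kilobase between 141 and 685. The range of each of these overlapped that of its neighbor in the order, apart from Col5a1 (563 to 772) and Col1a1 (265 to 539). Below a gap stood Col16a1 at a median of 34.4 per kilobase and Col4a5 at 15.1, and the other 10 members had medians of 1.13 to 7.03 per kilobase. With the longest coding transcript as the length in place of all exons, Col1a2 moved from rank 4 to rank 2, since its exons sum to 12650 bases and that transcript to 5437.

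**Figure D2:**
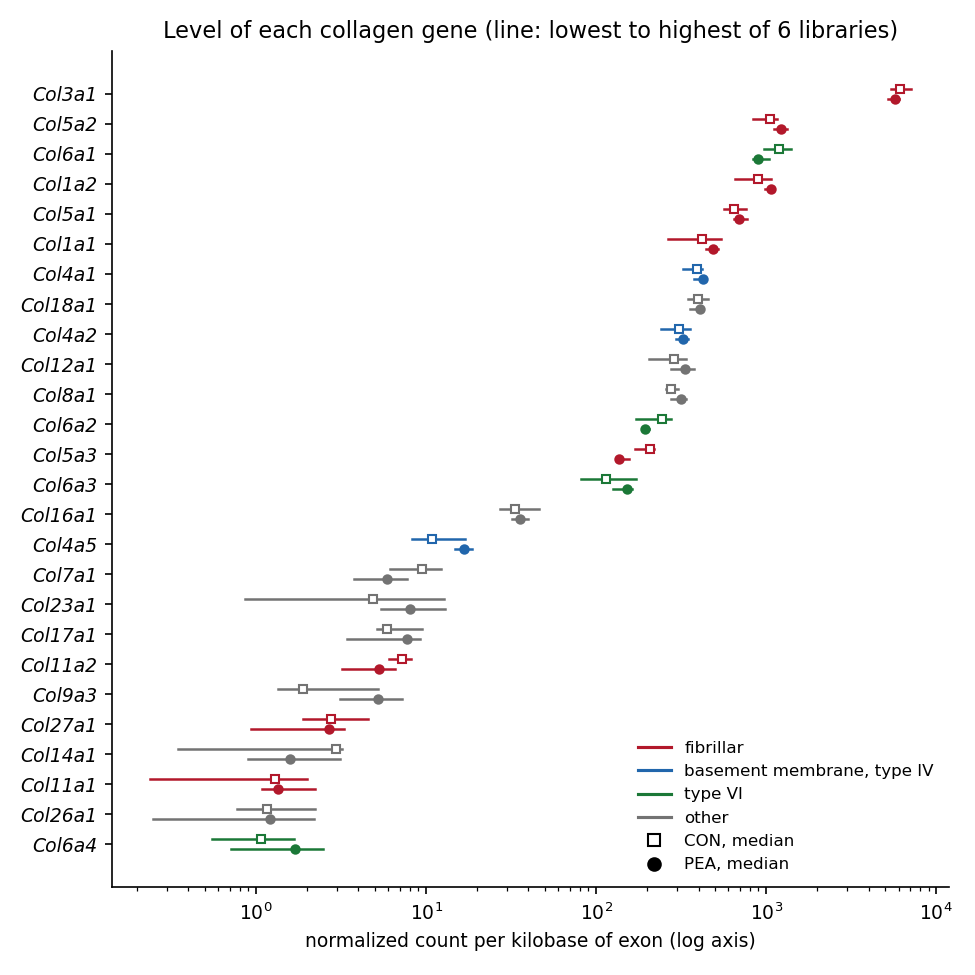
Normalized count per kilobase of exon (log axis) of the 26 collagen genes, ordered by the median over 12 libraries. Open squares mark the CON median, filled circles the PEA median, and lines run from the lowest to the highest of 6 libraries. Col3a1 stands above all others, and a gap separates Col6a3 from Col16a1.

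Of the summed level per kilobase, fibrillar collagens made up 74.0% at the CON median and 75.1% at the PEA median, of which Col3a1 alone was 48.0% and 46.0%. Type IV chains took 5.56% in CON and 6.15% in PEA, and the other collagens 8.21% and 8.89%. Type VI chains took 11.4% to 13.7% in CON (median 12.2%) and 9.27% to 11.4% in PEA (median 9.90%), and the highest PEA library, at 11.37%, lay just under the lowest CON library, at 11.39%. The shares of the other 3 classes overlapped between the groups.

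With PEA, 3 collagen genes were higher (Col1a2, Col5a2 and Col4a5) and 2 were lower (Col5a3 and Col6a1) among the 24 members tested, that is 20.8% called at an adjusted p below 0.05 in edgeR's quasi-likelihood test over all genes. Over the 13142 genes tested, 11.0% were called, 6.31% higher and 4.74% lower in PEA, and among the 4567 genes with a mean of 1000 or more, 15.0% were called. Col26a1 and Col6a4 fell under edgeR's filter on low counts and were not tested. The median log2 fold change of the 24 members was 0.08, beside 0.005 over all genes, and 16 of the 24 had a positive value. Col5a3 was the only tested member whose groups did not overlap in normalized counts, beside 4.34% of all genes tested. With 1 library left out, the higher calls numbered 0 without CON replicate 1, 3 or 6 or PEA replicate 2, 5 or 6, 1 without CON replicate 5 or PEA replicate 4, and 7 without CON replicate 2, and the lower calls 2 to 3. Fibrillar members ran from -0.53 to 0.30 and type VI members from -0.41 to 0.28 in log2 fold change, with both signs in each class, while the 3 type IV members ran from 0.06 to 0.50.

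**Figure D3:**
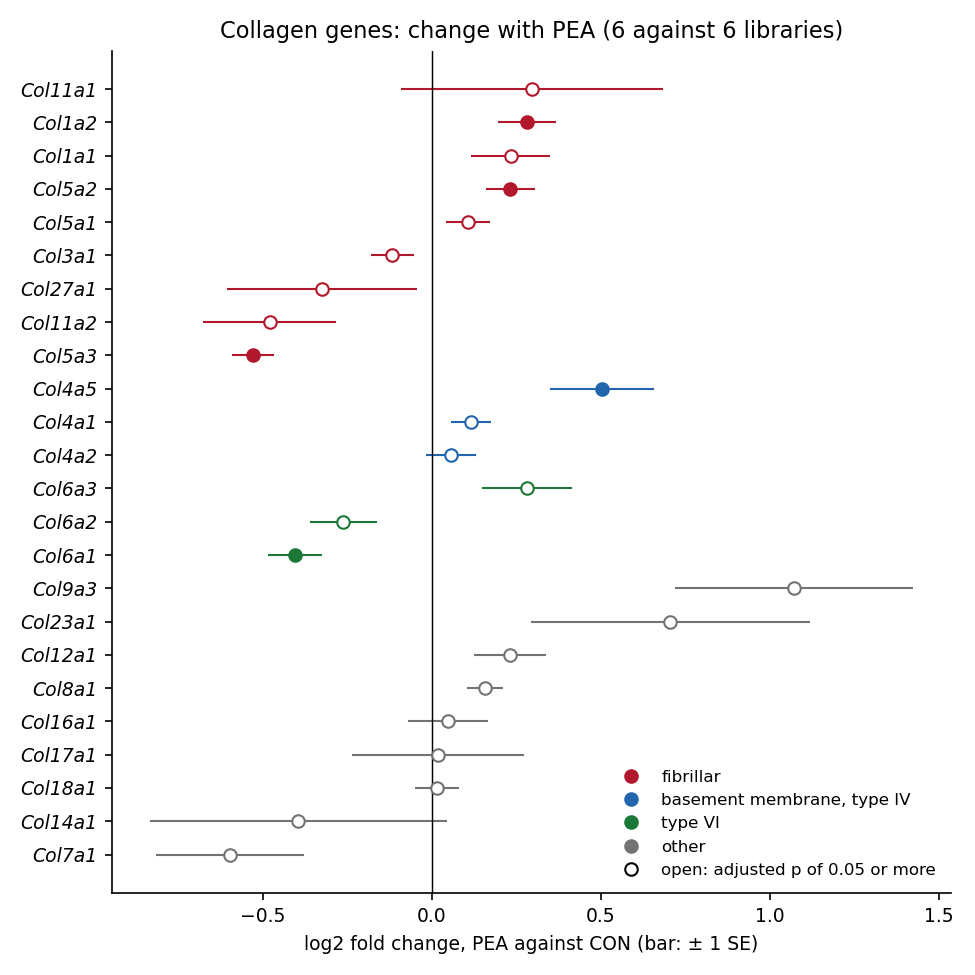
Log2 fold change (x axis, PEA against CON, bars ± 1 SE, 6 against 6 libraries) of the 24 collagen genes tested by edgeR, grouped and colored by class. Filled points have an adjusted p below 0.05. Col5a3 and Col6a1 lie below 0, and Col1a2, Col5a2 and Col4a5 above it.

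Markers of cell states were compared between the groups, and the lists differed in how far they moved. All 8 markers of dividing cells were called higher in PEA, beside 6.31% of all genes tested called higher and 4.74% called lower. Their summed normalized count was 2461 to 6274 in CON and 6358 to 7667 in PEA. CON replicate 3 was the lowest and CON replicate 2 the highest CON library for all 8. Of 7 fibroblast markers, 6 were in the tables and 5 had a mean of at least 10, with a sum of 3169 to 3931 in CON and 3994 to 4487 in PEA. Cd34, with a mean of 1965 in CON and 2318 in PEA, made up most of that sum and was the only one called. The list was split, with positive values for Pdgfra and Dpt and negative ones for Twist2 (log2 fold change -0.19, all 6 PEA libraries below the CON median) and Pi16 (-0.41). Thy1 was at 0 to 3.22 normalized counts in CON and 0 to 8.62 in PEA and was not tested. All 7 markers of undifferentiated myoblasts and reserve cells were present, with a sum of 10674 to 12655.5 in CON and 10044 to 11082 in PEA. Msc was called higher (log2 fold change 0.62, edgeR adjusted p = 0.0204, groups apart), Cdh15 was called lower (-0.25, adjusted p = 0.0444), and the other 5 were not called. Of 14 myotube markers, 13 had a negative value (median log2 fold change -0.16) and 3, Myh8, Tnnt3 and Actn2, were called lower, beside 4.74% of all genes tested, and CON replicate 3 was the lowest CON library for 11 of the 14. Of 6 cartilage and bone markers, 4 had values, with a summed count of 1713 to 2019 in CON and 2107 to 2277 in PEA. Sox9 was called higher. Runx2, with medians of 770 in CON and 887 in PEA, was not called (log2 fold change 0.15, edgeR adjusted p = 0.102). Sp7 was at 0 to 2.15 in CON and 0 to 5.05 in PEA, and Bglap at 0 to 15.3 and 0 to 4.19. The part of these markers in the collagen values was not tested, and in RNA from whole wells, fewer cells of a type and less RNA per cell cannot be told apart.

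Among the fibrillar collagens, the chains of type V split. Col5a3, which encodes the α3 chain of a minor type V trimer, had 1160 normalized counts in the lowest CON library, a median of 1424 and a highest of 1503. In PEA it had 910, 944 and 1068. Every PEA library was therefore below every CON library, and Col5a3 was lower by edgeR (log2 fold change -0.53, SE 0.06, adjusted p = 0.000273). With each library left out in turn it was still called, at adjusted p-values of 1.65e-05 to 0.00144.

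Col5a2, which encodes the α2 chain of the common type V trimer, had 9372 normalized counts at the lowest, 11730 at the median and 12963 at the highest in CON. In PEA the values were 12447, 13566 and 14908. All 6 PEA libraries lay above the CON median, and 4 CON libraries lay below the PEA range. Col5a2 was higher (log2 fold change 0.23, SE 0.07, edgeR adjusted p = 0.0467), a call that was lost without CON replicate 1, 3, 5 or 6 or without PEA replicate 2, 4, 5 or 6 (adjusted p 0.0151 to 0.113 over the 12 omissions) and in 1 of 2 random draws of libraries thinned to the smallest (0.0563).

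Col5a1, the chain that pairs with Col5a2 in the common trimer, ran from 4909 to 6594 normalized counts around a median of 5622 in CON. In PEA it ran from 5672 to 6733 around 5997. These groups overlapped, and Col5a1 was not called (log2 fold change 0.11, SE 0.07, edgeR adjusted p = 0.301). Within each library, Col5a3 stood to Col5a1 at 0.213 to 0.273 in CON and at 0.145 to 0.163 in PEA, as a ratio of estimated counts. Its ratio to Col5a2 was 0.109 to 0.132 in CON and 0.0654 to 0.0782 in PEA. These 2 ratios were chosen after the values were seen, and their groups did not overlap.

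The chains of type I collagen, the main fibril protein of tendon, bone and the muscle matrix, had positive fold changes, of which that of Col1a2 passed the test. Col1a2, the α2 chain, had 8289 normalized counts in the lowest, 11300 in the median and 13429 in the highest CON library, and 12413, 13416 and 14039 in PEA. In CON, 5 libraries lay below the PEA range, and replicate 2 lay within it. The log2 fold change of Col1a2 was 0.28 (SE 0.09, edgeR adjusted p = 0.0456). This call was lost without CON replicate 1, 3, 5 or 6 or without any of PEA replicates 2 to 6 (adjusted p 0.00615 to 0.104 over the 12 omissions).

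Col1a1, the α1 chain, of which type I collagen holds more than of the α2 chain, ran from 1741 to 3541 normalized counts in CON around a median of 2764. It ran from 2913 to 3415 in PEA around 3195. The PEA range lay inside the CON range, and Col1a1 was not called (log2 fold change 0.23, SE 0.12, edgeR adjusted p = 0.211). It passed without CON replicate 2 (0.33, edgeR adjusted p = 0.0409), and without CON replicate 3 its log2 fold change was 0.13.

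Col3a1 had 55711 to 72658 normalized counts in CON (median 63132) and 53160 to 62361 in PEA (median 58638). All 6 PEA libraries were below the CON median, but the groups overlapped and Col3a1 was not called (log2 fold change -0.12, SE 0.06, edgeR adjusted p = 0.246). The 3 remaining fibrillar genes were low and not called. Col11a1 and Col11a2, chains of the cartilage fibril collagen, had log2 fold changes of 0.30 and -0.48, and Col27a1 had -0.33, with edgeR adjusted p-values of 0.667, 0.122 and 0.493. With 1 library left out, Col11a1 ran from 0.09 to 0.60, Col11a2 from -0.56 to -0.38 and Col27a1 from -0.44 to -0.16.

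Among the type VI chains, the genes neighboring on chromosome 10 had negative values and the gene on chromosome 1 a positive one. Col6a1 and Col6a2 encode the short chains of the type VI trimer and Col6a3 the long one. Col6a1 had 5684, 6906 and 8209 normalized counts in the lowest, median and highest CON library and 4903, 5196 and 6085 in PEA. In all, 5 of 6 CON libraries lay above the highest PEA library, the exception being CON replicate 3. Col6a1 was lower in PEA (log2 fold change -0.41, SE 0.08, edgeR adjusted p = 0.00526), and this call too was made with each library left out (adjusted p 0.000706 to 0.0183).

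Col6a2 had 1883 to 3048 normalized counts in CON (median 2668) and 2034 to 2245 in PEA (median 2123), where all 6 libraries lay below the CON median. It was not called by edgeR (log2 fold change -0.26, SE 0.10, adjusted p = 0.0947), and passed without CON replicate 3 (adjusted p = 0.015) and in DESeq2 (adjusted p = 0.0479). Col6a3 had 976 to 2072 in CON (median 1383) and 1516 to 1955 in PEA (median 1835), where all 6 libraries lay above the CON median. It was not called (log2 fold change 0.28, SE 0.13, edgeR adjusted p = 0.184), and passed without CON replicate 2 (adjusted p = 0.0221). Col6a4, an additional long chain, ran from 4.72 to 14.2 normalized counts in CON and from 6.06 to 21.1 in PEA.

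**Figure D4:**
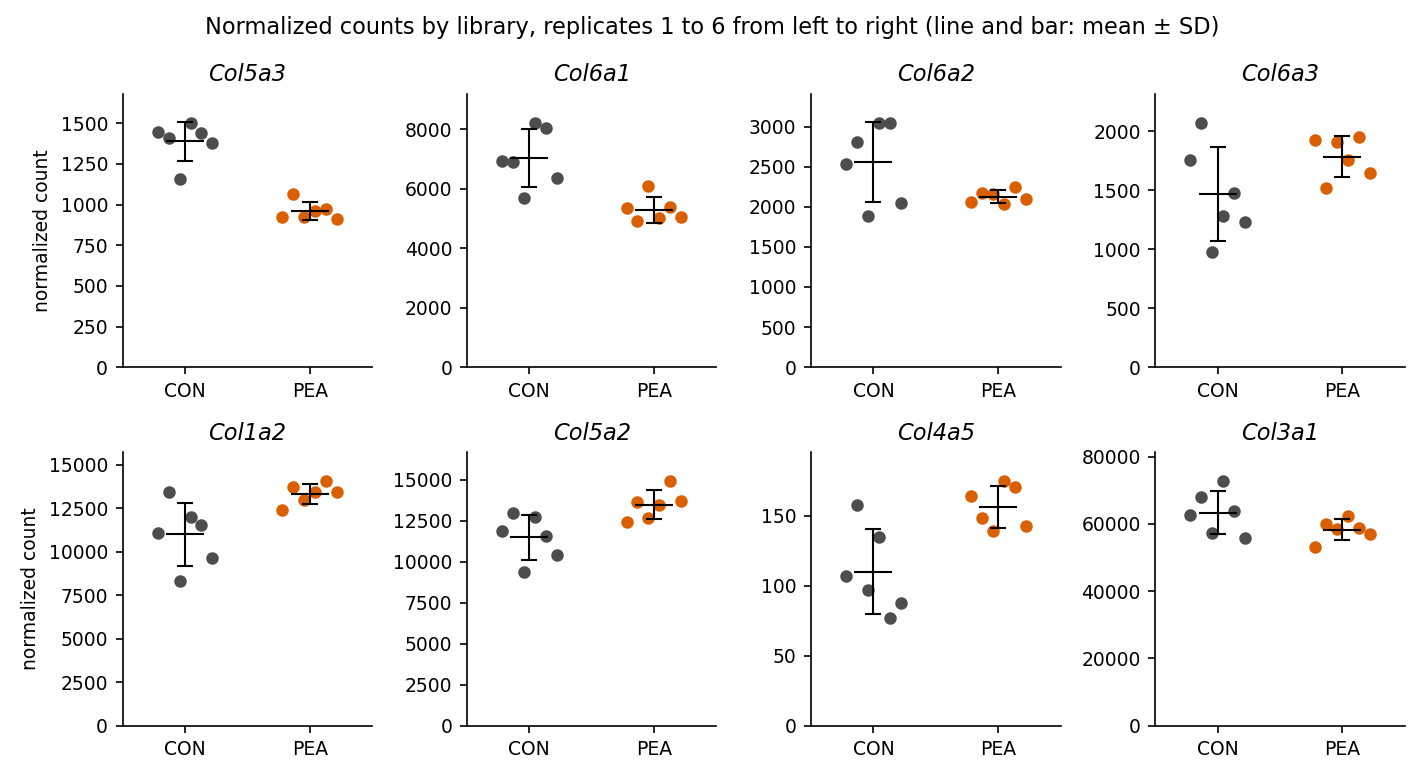
Normalized counts (y axis, from 0) of 8 collagen genes in each CON and PEA library, replicates 1 to 6 from left to right, with the mean ± SD. For Col5a3 each PEA library lies below each CON library, and for Col6a1 all but CON replicate 3 lie above the PEA range. CON replicate 3 is the lowest CON library for Col5a3, Col6a1, Col6a2, Col6a3, Col1a2 and Col5a2.

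The balance of chains within a trimer was compared by the ratio of their estimated counts within each library, which does not depend on the scaling between libraries. In all, 5 ratios were tested by a two-sided exact permutation test, whose smallest possible p was 0.00216 over 924 assignments, and adjusted over the 5. Col6a1 to Col6a3 was 3.32 to 6.39 in CON (median 5.29) and 2.74 to 3.24 in PEA (median 2.95). The groups did not overlap, and the log2 difference of -0.72 had the smallest possible exact p of 0.00216 (adjusted p = 0.0108). CON replicates 1 and 2, at 3.94 and 3.32, stood below the 5.16 to 6.39 of the other CON libraries, and with each library left out the difference was -0.83 to -0.64.

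The other chain ratios overlapped between the groups and did not pass after adjustment. Col6a1 to Col6a2 had medians of 2.71 (CON) and 2.44 (PEA) (log2 difference -0.16, exact p = 0.0519, adjusted p = 0.0866). Col5a1 to Col5a2 had medians of 0.512 and 0.450 (-0.13, exact p = 0.0346, adjusted p = 0.0866). Without CON replicate 4 the second of these passed (adjusted p = 0.00541 by the exact test), and without PEA replicate 3 the first did (exact adjusted p = 0.0379). Col1a1 to Col1a2 had medians of 0.248 and 0.236 (-0.03, exact p = 0.587), and Col4a1 to Col4a2 of 1.29 and 1.34 (0.06, exact p = 0.342).

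**Figure D5:**
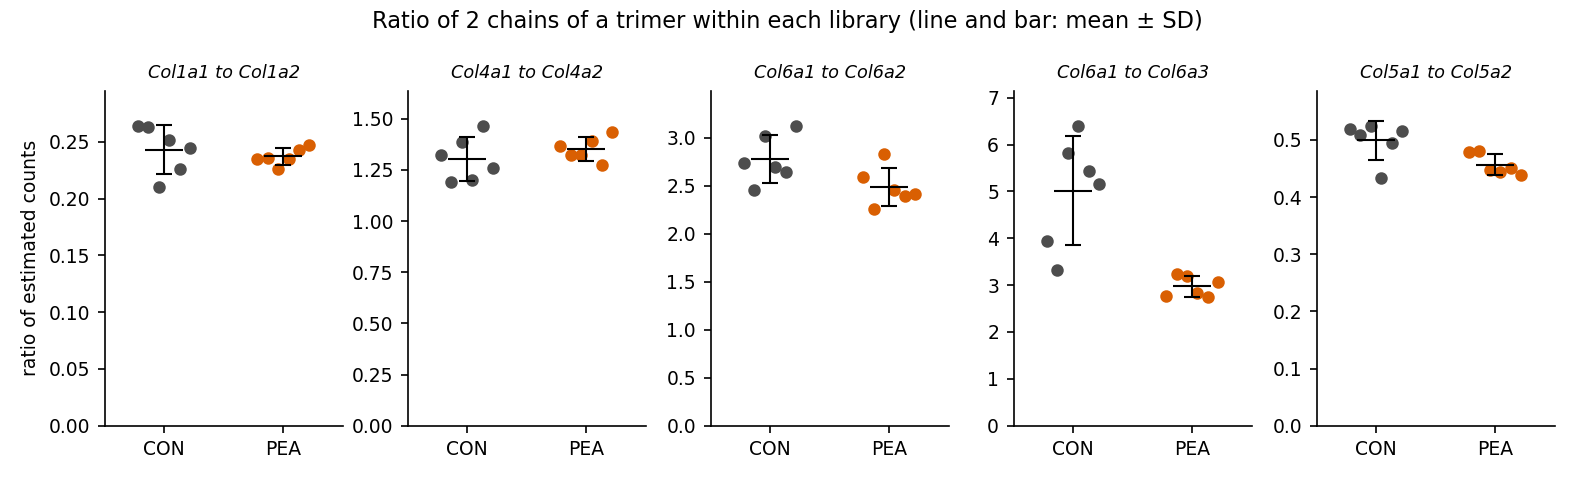
Ratio of the estimated counts of 2 chains of a trimer (y axis, from 0) in each of 6 CON and 6 PEA libraries, with the mean ± SD. The Col6a1 to Col6a3 ratio is 3.32 to 6.39 in CON and 2.74 to 3.24 in PEA, and the other 4 ratios overlap between the groups.

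The type IV collagens had positive fold changes, of which only that of the least abundant member passed. Col4a5, whose chain joins the α3α4α5 and α5α5α6 networks, had 77.0 normalized counts in the lowest, 102 in the median and 158 in the highest CON library, and 139, 156 and 175 in PEA. Of the CON libraries, 5 lay below the PEA range. By edgeR it was higher by 0.50 on the log2 scale (SE 0.15, adjusted p = 0.0454), a difference that no longer passed without CON replicate 1, 3, 5 or 6 or without PEA replicate 1, 2, 4, 5 or 6 (adjusted p 0.00633 to 0.102 over the 12 omissions) and in 1 of 2 draws of thinned libraries (0.0709). Its head-to-head neighbor Col4a6, 1281 bases away on chromosome X, had a mean of 3.33 normalized counts, and Col4a3 and Col4a4 had 2.68 and 2.38, so the usual partners of this chain were near 0.

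Col4a1 and Col4a2 encode the α1 and α2 chains of the ubiquitous basement membrane trimer. Col4a1 had 2410 to 3118 normalized counts in CON (median 2932) and 2813 to 3294 in PEA (median 3154). Col4a2 had 1738 to 2561 in CON (median 2204) and 2118 to 2502 in PEA (median 2339). Both pairs of groups overlapped and neither was called (Col4a1, log2 fold change 0.12, SE 0.06, edgeR adjusted p = 0.210; Col4a2, 0.06, SE 0.08, edgeR adjusted p = 0.671).

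Col4a1 and Col4a2 lie head to head on chromosome 8, and their promoters are shown because the pair shares a start region. The windows of 250 bases before to 50 after each start come from RefSeq (table on GRCm38.p6) and were placed on GRCm39 by an exact match, with both windows overlapping by 78 bases. Capitals mark the CCAAT box (CCAAT) and the GC box (GGGCGG) on either strand, and no TATAAA occurs in either window.
Col4a1 promoter, chr8:11362777-11363076, minus strand: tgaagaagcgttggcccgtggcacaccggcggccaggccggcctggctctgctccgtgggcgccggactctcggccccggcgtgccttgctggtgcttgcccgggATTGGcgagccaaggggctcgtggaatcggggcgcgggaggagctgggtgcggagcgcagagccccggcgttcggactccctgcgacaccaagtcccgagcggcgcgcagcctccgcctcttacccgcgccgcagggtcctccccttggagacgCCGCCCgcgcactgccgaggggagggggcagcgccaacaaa
Col4a2 promoter, chr8:11362555-11362854, plus strand: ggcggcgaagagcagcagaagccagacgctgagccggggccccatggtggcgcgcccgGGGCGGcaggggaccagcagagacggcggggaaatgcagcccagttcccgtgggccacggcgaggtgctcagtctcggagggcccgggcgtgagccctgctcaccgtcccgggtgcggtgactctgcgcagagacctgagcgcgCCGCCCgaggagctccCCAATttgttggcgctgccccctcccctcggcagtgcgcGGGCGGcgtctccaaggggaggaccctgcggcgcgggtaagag

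The promoters of the called members in the RefSeq table are shown in the same way. Of the 26 members, 20 were in that table, and Col1a1, Col5a2, Col9a3, Col12a1, Col14a1 and Col26a1 were not.
Col5a3 promoter, chr9:20726314-20726613, minus strand: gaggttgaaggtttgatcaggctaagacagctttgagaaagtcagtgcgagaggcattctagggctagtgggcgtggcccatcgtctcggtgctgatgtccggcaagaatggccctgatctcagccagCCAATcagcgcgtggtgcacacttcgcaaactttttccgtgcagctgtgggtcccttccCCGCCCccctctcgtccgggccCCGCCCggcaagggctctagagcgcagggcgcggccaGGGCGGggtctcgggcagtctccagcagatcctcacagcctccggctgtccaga
Col6a1 promoter, chr10:76561829-76562128, minus strand: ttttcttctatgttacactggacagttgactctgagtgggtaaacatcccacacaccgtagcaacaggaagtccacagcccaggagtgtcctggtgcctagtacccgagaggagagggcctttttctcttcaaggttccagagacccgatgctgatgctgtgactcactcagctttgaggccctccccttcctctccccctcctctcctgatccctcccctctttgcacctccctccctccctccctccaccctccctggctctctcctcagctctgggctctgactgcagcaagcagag
Col1a2 promoter, chr6:4505368-4505667, plus strand: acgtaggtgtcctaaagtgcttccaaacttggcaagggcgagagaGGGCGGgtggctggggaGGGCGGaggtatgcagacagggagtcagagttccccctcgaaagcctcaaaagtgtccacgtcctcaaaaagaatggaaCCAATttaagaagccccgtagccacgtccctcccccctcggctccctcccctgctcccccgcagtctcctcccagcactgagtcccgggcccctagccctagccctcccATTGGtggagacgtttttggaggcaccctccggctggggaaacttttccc
Col4a5 promoter, chrX:140258165-140258464, plus strand: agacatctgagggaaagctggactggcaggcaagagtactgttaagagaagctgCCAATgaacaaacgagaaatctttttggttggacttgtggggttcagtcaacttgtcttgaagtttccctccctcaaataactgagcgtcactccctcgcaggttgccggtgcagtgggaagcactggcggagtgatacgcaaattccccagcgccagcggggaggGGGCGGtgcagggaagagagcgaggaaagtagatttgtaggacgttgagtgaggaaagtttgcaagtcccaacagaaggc
Col5a3 held a CCAAT box from -122, counted with the start site as 1 and no position 0, and GC boxes from -63, -41 and -4. Col6a1 held none of the 3 motifs. Col1a2 held GC boxes from -205 and -188 and CCAAT boxes from -109 and from 1, and Col4a5 a CCAAT box from -196 and a GC box from -30. GGGCGG was in 16 of the 20 member promoters and in 35.7% of all 32851 promoters of the table, CCAAT in 11 of 20 and 37.4%, and TATAAA in 3 of 20 (Col3a1, Col11a2 and Col17a1) and 13.6%. The motifs were searched on both strands and no matches shown here overlap, and a match describes the sequence only.

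The other collagens had no called member. Col12a1, a fibril-associated collagen of tendon and muscle, had 3135 to 5186 normalized counts in CON (median 4383) and 4191 to 5740 in PEA (median 5092), with a log2 fold change of 0.23 (SE 0.11, edgeR adjusted p = 0.168). Col18a1, a heparan sulfate proteoglycan of basement membranes, had 2459 to 3211 in CON (median 2799) and 2510 to 3013 in PEA (median 2888), with 0.02 (SE 0.07, edgeR adjusted p = 0.909). Col8a1, a short-chain network collagen, had the smallest SE of the tested members at 0.05, with a log2 fold change of 0.16 and an adjusted p of 0.0647 by edgeR, and it passed without PEA replicate 4 (0.19, adjusted p = 0.0378).

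The low members of this class had wide errors. Col9a3, a chain of the cartilage collagen IX, had 6.08 to 23.6 normalized counts in CON and 14.1 to 32.6 in PEA, and its log2 fold change of 1.07 (SE 0.35) had an adjusted p of 0.0585 by edgeR, 0.046 by DESeq2 and 0.0384 by limma-voom. By edgeR it passed without CON replicate 2 (adjusted p = 0.0473) or 5 (0.0262). Col7a1, the anchoring fibril chain of skin, had 62.8 to 126 in CON and 38.9 to 79.5 in PEA, with -0.60 (SE 0.22, adjusted p = 0.0850 by edgeR, 0.045 by DESeq2, 0.0438 without CON replicate 2 and 0.0499 in 1 of 2 draws of thinned libraries). Col16a1, a fibril-associated collagen, had 196 to 336 in CON and 232 to 286 in PEA (0.05, SE 0.12), and the transmembrane Col17a1, a hemidesmosome protein, had 30.9 to 56.9 and 20.5 to 55.7 (0.02, SE 0.26). Col14a1, a fibril-associated relative of Col12a1, had 2.43 to 22.4 in CON and 6.30 to 22.0 in PEA (-0.40, SE 0.44), and the transmembrane Col23a1 had 5.08 to 75.1 and 32.3 to 76.7 (0.71, SE 0.41). These 4 had edgeR adjusted p-values between 0.285 and 0.973, and each pair of groups overlapped. Without CON replicate 2, Col23a1 had a log2 fold change of 1.14 and passed (edgeR adjusted p = 0.047). Col26a1, which was not tested, ran from 6.29 to 18.2 in CON and from 2.02 to 17.9 in PEA.

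The spread between libraries was wider in CON. Over the 14 members with a mean of at least 1000, the median coefficient of variation was 12.5% (CON) and 6.5% (PEA), and it was larger in CON for 13 of them. Over the 4567 genes at that level the medians were 6.96% and 5.33%, and 71.6% were more variable in CON. CON replicate 3 was the lowest CON library for 12 of the 14, beside 23.7% of genes at that level. The values of these members are thus not independent of each other.

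Genes that modify, fold, cut and crosslink collagen were examined as a list of 37, of which 33 were tested. Of these, 6 were higher in PEA and 1 was lower, beside 6.31% and 4.74% of all genes tested, and the median log2 fold change was 0.06, beside 0.005 over all genes. Lox, which starts crosslinks by oxidizing lysines, had 7280 to 8211 normalized counts in CON and 9634 to 11119 in PEA (log2 fold change 0.41, SE 0.05, edgeR adjusted p = 0.000236). The groups of Lox did not overlap, as was also so for P3h2 and P3h3, members of the prolyl 3-hydroxylase family, beside 4.34% of all genes tested. P3h3 (log2 fold change 0.32, edgeR adjusted p = 0.00675), P3h2 (0.65, adjusted p = 0.0149) and the lysyl oxidase relative Loxl3 (0.46, adjusted p = 0.0130) were the next by p-value. Named after their values were seen, P3h1 and P4ha3 were also higher (0.27 each, adjusted p = 0.0199 and 0.0254), and P4ha1, a catalytic subunit of prolyl 4-hydroxylase, was lower (-0.13, adjusted p = 0.0478). With 1 library left out, P4ha1 was called only without CON replicate 2 or PEA replicate 3 (adjusted p 0.0122 to 0.106). P3h1 lost its call without PEA replicate 2, 5 or 6, and P4ha3 without CON replicate 5 or 6 or PEA replicate 4 or 6.

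Of 39 receptors, fibril partners and basement membrane partners, 33 were tested, 5 were higher and 1 was lower, beside 6.31% and 4.74% of all genes tested. The median log2 fold change of the list was 0.13, beside 0.005 over all genes. Ddr2, a receptor tyrosine kinase for fibrillar collagen, was higher (0.23, SE 0.06, edgeR adjusted p = 0.0182). Agrn, a basement membrane proteoglycan of the neuromuscular junction, was higher (0.76, SE 0.19, adjusted p = 0.0188). Adgrg1, an adhesion receptor that binds type III collagen, was lower (-0.31, SE 0.08, adjusted p = 0.0189), with 484 to 693 normalized counts in CON and 411 to 458 in PEA. Bgn, a small proteoglycan that binds collagen fibrils, was higher (0.28, SE 0.08, adjusted p = 0.0415), and so were Dcn (0.49, adjusted p = 0.0439) and Thbs2 (0.41, adjusted p = 0.0489), named after their values were seen. Bgn, Dcn and Thbs2 lost their calls in 9, 9 and 10 of the 12 omissions of 1 library. The higher calls numbered 2 to 9 with 1 library left out, 2 without CON replicate 1 or 6 or PEA replicate 2, 3, 4, 5 or 6, 3 without CON replicate 5 or PEA replicate 1, and 9 without CON replicate 2.

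Reads of overlapping genes limit some of these values, because the strand used in counting is not given in the sources used here. Of the 26 members, 16 share exon bases with another annotated gene, and for 6 of these the other gene has deposited counts. The shares were 12.7% of exon bases for Col18a1 (with Slc19a1), 11.8% for Col9a3 (with Tcfl5), 10.3% for Col1a2 (with Gm66266), 4.56% for Col12a1 (with 4930562D21Rik) and 4.17% and 4.33% for Col4a1 and Col4a2 (with each other). Tcfl5 and Gm66266 have no deposited counts. Col5a3, Col6a1, Col5a2 and Col4a5 shared none.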

How the data were processed

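Reads of 12 poly-A libraries were trimmed, aligned with STAR to mm39 and quantified to Ensembl transcripts in Partek Flow by the authors. The authors deposited the estimated count of each gene, which was rounded to whole numbers before testing. They also deposited a signal table of these counts divided by a DESeq2 factor for each library, and its values are printed here as normalized counts. Symbols and positions came from GENCODE on GRCm39 for 16343 of 16382 genes.

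CON and PEA, 6 libraries each as labelled, were compared with edgeR 4.0.16 (quasi-likelihood test, TMM, default filter) in R 4.3.3. P-values were adjusted by Benjamini-Hochberg across all 13142 genes that passed the filter, and calls were made at 0.05. TMM factors were 0.988 to 1.02, and the biological coefficient of variation was 0.106. Ratios within a library were tested by exact permutation. Tables and figures were made in Python 3.11.15 (matplotlib 3.10.9, numpy 2.4.6, pandas 2.3.3). As checks of the code, the edgeR fit was run on simulated counts and the exact test on a constructed case of separated groups. Depth, 12354845 to 50397444 counts, limits the members under 100 counts most, and errors cover the spread between libraries.

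Alternatives were DESeq2 1.42.0, limma-voom, limma-trend on log2 of the normalized counts plus 1 (limma 3.58.1), DESeq2 size factors, no filter, a minimum of 10 counts in all libraries, counts left unrounded, thinning to the smallest library, a threshold of 0.01, the replicate number as a block and each library left out. Every member is named, with full values for called members and the main chains of each type, and the 4 genes of smallest p in each list of other genes. The members and lists were chosen with earlier results of these data known.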

Additional observations from a re-analysis of the deposited data

Results flagged for a closer look

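In each group of 6 libraries, the distance of the highest and the lowest library from its nearest neighbor was set against the range of the group for the 26 members, which gave 52 groups. Of these, 2 stood out, and chance alone flags about 1 in 20. For Col5a3, CON replicate 3 had 1160 normalized counts, and the other CON libraries had 1378 to 1503. Without that library the log2 fold change of Col5a3 was -0.58. For Col26a1, which was not tested, CON replicate 4 had 18.2 normalized counts and the other CON libraries 6.29 to 10.7.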

How the results depend on the processing

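Col5a3 and Col6a1 were called lower under each alternative, the stricter threshold of 0.01 included, and at 0.05 in each omission of 1 library. Members called higher (3) numbered 0 at an adjusted p below 0.01, 1 in another random draw of thinned libraries, added after the data had been seen, and 0 to 7 with 1 library left out, with 0 without CON replicate 1, 3 or 6 or PEA replicate 2, 5 or 6. Members called lower (2) numbered 4 with DESeq2, 3 in that other draw, where Col7a1 passed, and 2 to 3 in the omissions. Genes called higher (829) and lower (623) numbered 282 and 123 at 0.01, and 492 to 1232 and 286 to 971 in the omissions, lowest without PEA replicate 6 and highest without CON replicate 2. Higher maturation genes (6) numbered 2 at 0.01 and 4 to 7 in the omissions, and the 1 lower gene gave 0 in both draws of thinned libraries, with no filter and at 0.01, and 0 to 2 in the omissions. Higher receptors and partners (5) numbered 0 at 0.01 and 2 to 9 in the omissions. The lower one (1) became 3 with DESeq2, 0 at 0.01 and 1 to 3 in the omissions. The Col6a1 to Col6a2 difference was -0.195 to -0.123 and that of Col5a1 to Col5a2 -0.166 to -0.111 in the omissions, each with 1 omission that passed. With the longest coding transcript as length, the median class shares over 12 libraries were 3.94% for type IV (main 5.76%), 79.2% for fibrillar (74.5%) and 6.59% for other collagens (8.45%). The type VI share was 10.2% (11.4%), and its groups were not compared at that length. The median log2 fold change of the type VI members (-0.262) was 0.006 with DESeq2, 0.011 with no filter and -0.319 to 0.085 in the omissions. It was positive only in fits that gave Col6a4 a value, where it became the mean of Col6a2 and Col6a3, and neither of these nor Col6a1 changed sign. Among single members signs turned for 4 that were not called. In the omissions the log2 fold change of Col16a1 was -0.013 to 0.145, of Col17a1 -0.078 to 0.156 (-0.095 with limma-voom), of Col18a1 -0.022 to 0.053 and of Col4a2 -0.004 to 0.102. The cause of the other changes was not tested.

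The replicate numbers did not pair the libraries. The deviations of same-numbered libraries had correlations of -0.0829 to 0.0649, and 0 of the 6 CON libraries correlated best with their own number. With the replicate block, 0 maturation genes and 2 receptors or partners were called lower. The Col6a1 to Col6a3 difference of -0.72 had an adjusted p of 0.0781 by an exact sign-flip test of pairs. The smallest possible p of that test before adjustment is 0.0312. Over 5 ratios such a p passes 0.05 only if most of the other ratios are near it too, so this test could hardly pass and decides nothing here.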
